A study of Homo sapiens with 12 samples.

Results

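The proteasome subunits described here are the protein-coding genes whose symbol is PSMA, PSMB, PSMC or PSMD followed by digits only, without PSMB8 and PSMB9. This rule found 37 genes among the 60669 gene IDs of the count table, of which 17 encode parts of the core particle (PSMA and PSMB), 17 encode parts of the regulatory particle (PSMC and PSMD), and 3 (PSMD5, PSMD9 and PSMD10) encode chaperones that assemble the regulatory particle and then leave it. RNA was sequenced from 6 established cell lines that the study describes as ovarian cancer lines. Each was treated in growth medium with 8 µM quinacrine (QC, an old antimalarial drug) for 6 h or, in parallel, with buffer, here called vehicle. The sensitive lines are HeyA8, SKOV3 and OV2008. The resistant lines are HeyA8_MDR, SKOV3_TR and OV2008_C13, isogenic partners that the study describes as resistant to carboplatin, taxol and cisplatin. There was 1 library for each line and treatment, 12 in all, so that the 3 lines of a group are its only replicates and no line has replicates of its own.

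The proteasome is the barrel-shaped protease that removes proteins marked with ubiquitin. Its core particle is a stack of alpha rings, which form the gate, and beta rings, whose subunits PSMB5, PSMB6 and PSMB7 carry the active sites, while the regulatory particle binds ubiquitin chains, unfolds the substrate and threads it into the core. The genes for the subunits are known to be raised together by the transcription factor NFE2L1 (also called NRF1) when proteasome activity falls, through antioxidant response elements in their promoters, and tumour cells with a high load of faulty proteins depend on this protease, the target of bortezomib.

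The promoters of 4 subunits that hold the core letters of that element, TGACNNNGC, before the start site are shown as examples. PSMD9 also holds these letters before its start, with matches beginning at -149 and -102, and is not shown. The bases, from RefSeq on GRCh38.p14, are the 200 before the annotated start of the gene, written 5′ to 3′ on the strand of the gene, with the element in capitals. PSMB3 (a beta ring subunit) lies at chr17:38752541-38752740 on the plus strand, PSMD3 (lid of the regulatory particle) at chr17:39980607-39980806 on the plus strand, PSMD12 (lid) at chr17:67366578-67366777 on the minus strand and PSMD5 (chaperone) at chr9:120842923-120843122 on the minus strand.
PSMB3: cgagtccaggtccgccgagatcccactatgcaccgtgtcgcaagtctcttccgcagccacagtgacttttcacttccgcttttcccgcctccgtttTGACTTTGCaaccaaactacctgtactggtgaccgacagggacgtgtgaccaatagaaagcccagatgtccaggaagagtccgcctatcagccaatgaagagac
PSMD3: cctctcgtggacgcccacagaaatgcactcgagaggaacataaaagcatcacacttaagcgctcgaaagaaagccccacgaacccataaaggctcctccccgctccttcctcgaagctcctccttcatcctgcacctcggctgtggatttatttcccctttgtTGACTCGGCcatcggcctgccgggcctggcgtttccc
PSMD12: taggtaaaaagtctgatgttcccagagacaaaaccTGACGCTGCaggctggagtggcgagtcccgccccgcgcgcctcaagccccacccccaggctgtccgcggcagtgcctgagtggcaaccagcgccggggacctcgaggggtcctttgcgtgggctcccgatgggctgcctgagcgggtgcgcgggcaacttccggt
PSMD5: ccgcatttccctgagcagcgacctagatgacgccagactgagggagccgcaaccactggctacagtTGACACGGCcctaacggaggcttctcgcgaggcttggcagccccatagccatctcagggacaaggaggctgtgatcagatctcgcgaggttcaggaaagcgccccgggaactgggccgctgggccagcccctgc

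A promoter of 300 bases (250 before to 50 after the start) was listed for 32 of the 37 subunits, 30 of them among the subunits tested. On either strand, TGACNNNGC was found in 7 of these 30 (23.3%), namely PSMB3, PSMC4, PSMD1, PSMD3, PSMD5, PSMD9 and PSMD12, against 14.7% of 11421 promoters of tested protein-coding genes. CCAAT, the letters bound by NF-Y, was found in 15 of 30 (50.0%) against 36.1%, and GGGCGG, bound by SP1, in 19 of 30 (63.3%) against 69.1%. The GGGCGG and CCAAT matches can lie in the same promoter as TGACNNNGC, as in PSMB3, which holds all 3. A match of letters is no measure of binding. The 7 subunits with TGACNNNGC had a median log2 change with QC of 0.28 in HeyA8, 0.21 in HeyA8_MDR, 0.04 in SKOV3, 0.35 in SKOV3_TR, -0.22 in OV2008 and -0.33 in OV2008_C13. The 23 without it had medians of 0.28, 0.42, 0.04, 0.56, -0.04 and -0.46 in the same order.

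Counts on genes totalled 17782556 to 30585059 per library, and the subunits held 79267 to 251692 of them, which is 0.395% to 0.842% of a library. The QC library of HeyA8 lay between its own line and its partner on the genes that separate them. On 65 genes whose level with vehicle in HeyA8_MDR was at least 8 times that in HeyA8, it lay 37.4% of the way from its own vehicle library to that of HeyA8_MDR (median over genes), while the other 5 QC libraries lay -0.00987% to 3.71% of the way to their partner. On genes at least 8 times lower in the partner the contrast was weaker. There the HeyA8 QC library lay 53.1% of the way (108 genes), but HeyA8_MDR lay 30.5% and OV2008 29.8% of the way, and the other 3 lines less than these, down to 3.63% in OV2008_C13. ABCB1, the drug pump raised in many multidrug resistant lines, was at 4.12 CPM (counts scaled by normalised library size) in HeyA8 with vehicle. It was at 26.5 CPM in HeyA8 with QC and at 53.9 and 54.6 CPM in HeyA8_MDR. ABCB1 also differed with QC in other lines, from 38.2 to 8.38 CPM in OV2008 and from 334 to 147 CPM in SKOV3_TR. In the SKOV3 and OV2008_C13 libraries it was at 0.599 CPM or less. Because of the position of the HeyA8 QC library, results are also given without the HeyA8 lines. Of the epithelial markers, KRT8 and KRT18 were present in all 12 libraries, and EPCAM, CDH1 and KRT19 were at 2.92 CPM or less in the 4 HeyA8 and HeyA8_MDR libraries. PAX8, a marker of Mullerian epithelium, was at 7.56 to 24.8 CPM in the OV2008 and OV2008_C13 libraries and at 234 to 480 CPM elsewhere. The other 2 Mullerian markers examined did not share this split. WT1 was at 0.999 to 4.79 CPM over the 12 libraries. MUC16 was at 0.926 to 2.35 CPM in the OV2008 and OV2008_C13 libraries, at most 0.296 CPM in those of HeyA8 and HeyA8_MDR, and highest in SKOV3 with vehicle (10.9 CPM). Leukocyte markers summed to at most 0.617 CPM.

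In vehicle libraries the 35 subunits tested differed widely in level. Per kilobase of the reference transcript, the median over the 6 vehicle libraries was highest for PSMA7 (360.0 CPM per kilobase) of the alpha ring, the active-site subunit PSMB7 (291), and the beta subunits PSMB4 (269) and PSMB1 (234), and lowest for PSMA2 (4.54), the chaperone PSMD9 (7.94), the ATPase PSMC1 (9.63) and PSMB10 (13.5), the inducible active-site subunit of the immunoproteasome. PSMA8, the alpha subunit of testis, had 0 counts in all 12 libraries. PSMB11, the beta subunit of thymic epithelium, had 12 counts in HeyA8 with QC, 2 in SKOV3_TR with vehicle, 1 in HeyA8_MDR with QC and 0 in the other 9 libraries, and neither gene was tested. The low level of PSMA2 rests on 111 to 371 counts per library. Of its exon bases, 17.2% also belong to another gene on the same strand, as do 39.4% of those of PSMB10, 76.1% of those of PSMC1 belong to NRDE2 on the opposite strand, and 31.2% of those of PSMD7 to an unnamed gene on the opposite strand. In all, 12 of the subunits shared exon bases with another gene, also PSMA1 (26.7%), PSMD9 (14.9%) and PSMA6 (14.1%) on the same strand. How reads on such shared bases were counted is not stated, so the levels of these genes are uncertain.

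PSMD2, the large scaffold of the base of the regulatory particle, set the HeyA8 and HeyA8_MDR lines apart from the other 4. Its level with vehicle and with QC was 1919 and 2568 in HeyA8, 2611 and 3075 in HeyA8_MDR, 267 and 261 in SKOV3, 284 and 379 in SKOV3_TR, 728 and 861 in OV2008 and 619 and 531 in OV2008_C13 CPM. All 4 HeyA8 and HeyA8_MDR libraries lay above the other 8, whatever the treatment. No other subunit was as high, and the summed level of the 35 subunits in HeyA8_MDR with QC, 8509 CPM, was 5434 CPM without PSMD2.

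The first question was whether QC changed the subunits in the same way over the lines. It did not do so beyond the rate of all genes. With edgeR's quasi-likelihood test, cell line as a block, 2 of 35 subunits had an unadjusted p under 0.05, PSMD10 and PSMD13, both higher with QC, where 15.2% of the 18720 genes tested had one. After Benjamini-Hochberg adjustment over all genes 0 subunits passed, and 0.0% of all genes did. DESeq2 with the same block gave the same 2 subunits at that threshold, against 15.5% of all genes. After adjustment DESeq2 passed 0 subunits, although it passed 518 of all genes (2.77%). The fitted log2 change was above 0 for 28 subunits and below 0 for 7, with a median of 0.12 (range -0.11 for PSMA3 to 0.32 for PSMD13) against 0.00 over all genes. None of the 35 changed in the same direction in all 6 lines, whereas 8.73% of all genes tested did, 4 subunits (PSMC5, PSMD5, PSMD6 and PSMD10) were higher with QC in 5 lines, and 21 were higher in 4.

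The lines went different ways, and within most lines the subunits went together. The changes per line are log2 ratios of normalised CPM, 1 library against 1, and carry no test. In SKOV3_TR, 33 of 35 subunits were above their vehicle level with QC, where 47.3% of all genes were, and their median log2 change was 0.49 (1.41-fold, quartiles 0.36 and 0.59). HeyA8 had 33 of 35 above (48.5% of all genes) with a median of 0.28 (1.22-fold), and HeyA8_MDR 30 of 35 (46.0%) with a median of 0.35 (1.28-fold). In SKOV3, 21 of 35 were above (49.0% of all genes) and the median was 0.04, and in OV2008, 12 of 35 (49.5%) with a median of -0.05. OV2008_C13 went the other way, with 2 of 35 above vehicle (47.7% of all genes) and a median of -0.45 (0.733-fold, quartiles -0.55 and -0.23). The median over all genes was between -0.01 and 0.00 in every line. The split held under other scalings, where medians lay between 0.25 and 0.31 in HeyA8, 0.22 and 0.39 in HeyA8_MDR, 0.37 and 0.49 in SKOV3_TR, and -0.45 and -0.29 in OV2008_C13, while that of OV2008 moved from -0.08 to 0.00. After correction of each line's changes for GC content and transcript length the median was 0.18 in HeyA8 and -0.12 in OV2008, and the other 4 lines gave 0.34, 0.07, 0.47 and -0.47 (HeyA8_MDR, SKOV3, SKOV3_TR and OV2008_C13). With library size alone the median of all genes itself shifted by -0.13 in HeyA8_MDR, -0.12 in SKOV3_TR and 0.12 in OV2008_C13, and relative to it the subunit medians were 0.34, 0.50 and -0.41. Levels are shares of a library, so less transcript per cell and fewer cells that carry it cannot be told apart, and library preparation and line cannot be told apart either.

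**Figure D1:**
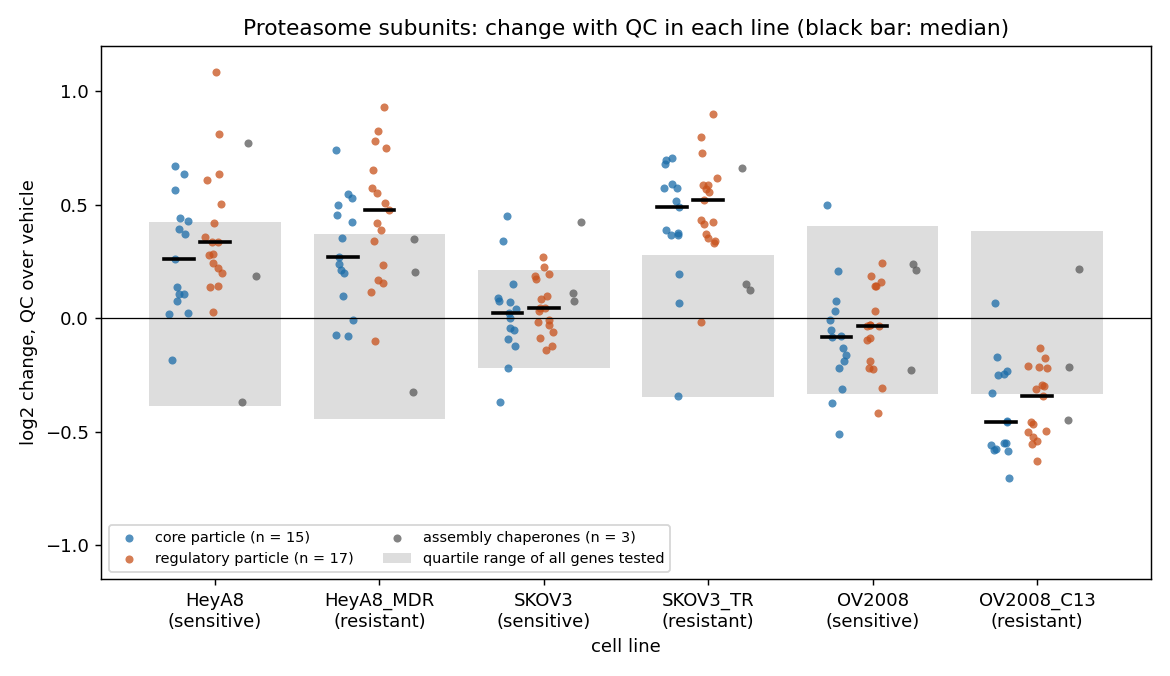
The log2 change of each of the 35 subunits tested (QC over vehicle, vertical axis) is plotted for the 6 lines (horizontal axis), with core particle, regulatory particle and chaperones as separate columns of points, black bars at the medians of both particles and grey boxes over the range between the quartiles of all genes tested. Points lie mostly above 0 in HeyA8, HeyA8_MDR and SKOV3_TR, around 0 in SKOV3 and OV2008, and below 0 in OV2008_C13, where 33 of 35 are below.

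The alpha ring, which gates the core, showed this split between lines. All 7 alpha subunits tested were higher with QC in SKOV3_TR (median 0.58) and all 7 were lower in OV2008_C13 (median -0.56), while 6 of 7 were higher in HeyA8 and in HeyA8_MDR, 3 of 7 in SKOV3 and 1 of 7 in OV2008. The 7 changes ran from -0.71 (PSMA3) to -0.25 (PSMA2) in OV2008_C13 and from 0.37 (PSMA5) to 0.71 (PSMA2) in SKOV3_TR. Each is 1 library against 1. Of all genes tested, 48.7% were below vehicle in OV2008_C13 and 47.3% above it in SKOV3_TR. PSMA3 had the lowest change of the 35 subunits in both OV2008 lines. Its level with vehicle and with QC was 86.8 and 76.4 in HeyA8, 49.2 and 57.0 in HeyA8_MDR, 55.0 and 53.4 in SKOV3, 66.7 and 99.5 in SKOV3_TR, 205 and 144 in OV2008 and 391 and 240.0 in OV2008_C13 CPM. It was highest in OV2008_C13 without QC and lower there with QC by 0.71 on the log2 scale, and higher with QC in HeyA8_MDR and SKOV3_TR only. PSMA2, with few counts, gave 6.25 and 8.44 in HeyA8, 6.49 and 10.9 in HeyA8_MDR, 6.53 and 5.04 in SKOV3, 4.81 and 7.90 in SKOV3_TR, 8.85 and 12.5 in OV2008 and 12.4 and 10.4 in OV2008_C13 CPM. Its fitted change over the 6 lines was 0.30 (SE 0.20, edgeR quasi-likelihood test, adjusted p = 0.504), with SKOV3 and OV2008_C13 below vehicle and the other 4 lines above.

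The active-site subunits followed the split in part. All 3 were above vehicle with QC in HeyA8 and SKOV3_TR and below it in OV2008_C13, but PSMB6 was below vehicle in HeyA8_MDR (-0.07) and PSMB7 above it in OV2008 (0.21). PSMB5, the chymotrypsin-like site that bortezomib blocks, was at 143 and 171 in HeyA8, 136 and 160.3 in HeyA8_MDR, 44.9 and 45.5 in SKOV3, 99.6 and 114 in SKOV3_TR, 159 and 139 in OV2008 and 289 and 193 in OV2008_C13 CPM (vehicle and QC). The vehicle level of OV2008_C13 was the highest of the 12 libraries, its QC level was lower by 0.58 on the log2 scale, and the fitted change over lines was -0.01 (SE 0.13). PSMB6, the caspase-like site, was at 133 and 143 in HeyA8, 151 and 143 in HeyA8_MDR, 33.1 and 41.9 in SKOV3, 42.1 and 59.3 in SKOV3_TR, 182 and 186 in OV2008 and 208 and 175 in OV2008_C13 CPM, and its fitted change was 0.11 (SE 0.12). The SKOV3 and SKOV3_TR libraries were far below the other 8 for this subunit with either treatment. PSMB7, the trypsin-like site, was at 255 and 407 in HeyA8, 317 and 426 in HeyA8_MDR, 176 and 169 in SKOV3, 148 and 190.3 in SKOV3_TR, 384 and 444 in OV2008 and 511 and 453 in OV2008_C13 CPM. It was higher with QC in 4 lines, lower in SKOV3 and OV2008_C13, and had the smallest p of the core (0.24, SE 0.13, edgeR quasi-likelihood test, adjusted p = 0.399). Among the 4 other beta subunits tested, which shape the ring without cutting, PSMB3 was at 88.3 and 137 in HeyA8, 93.5 and 137 in HeyA8_MDR, 50.7 and 53.2 in SKOV3, 83.1 and 124 in SKOV3_TR, 159.7 and 159 in OV2008 and 197 and 157 in OV2008_C13 CPM. It was higher with QC in HeyA8, HeyA8_MDR, SKOV3 and SKOV3_TR, almost level in OV2008, and lower in OV2008_C13, with a fitted change of 0.25 (SE 0.14, edgeR quasi-likelihood test, adjusted p = 0.430). The 4 were above vehicle in HeyA8, from 0.02 (PSMB2) to 0.64 (PSMB3), in HeyA8_MDR, from 0.10 (PSMB1) to 0.55 (PSMB3), and in SKOV3_TR, from 0.07 (PSMB4) to 0.70 (PSMB2), and below it in OV2008_C13, from -0.55 (PSMB1) to -0.23 (PSMB4). PSMB4 changed least over the lines among the core subunits, with an SD of 0.22 (n = 6).

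PSMB10 replaces PSMB7 in the immunoproteasome, the form of the core induced by interferon, and it did not follow the other core genes. Its level was 11.3 and 15.4 in HeyA8, 15.1 and 15.1 in HeyA8_MDR, 17.7 and 24.2 in SKOV3, 11.2 and 8.80 in SKOV3_TR, 9.97 and 8.03 in OV2008 and 19.3 and 20.2 in OV2008_C13 CPM. In SKOV3_TR it was 1 of the 2 subunits below vehicle with QC (-0.34), in SKOV3 it had the highest change of the 35 (0.45), and in OV2008_C13 it was 1 of the 2 above vehicle (0.07). Without PSMB10, all 14 other core subunits tested were above vehicle in SKOV3_TR and all 14 were below it in OV2008_C13. Its partners in the immunoproteasome, PSMB8 and PSMB9, are no members by the rule and changed by -0.17 (SE 0.15) and 0.03 (SE 0.18) over the 6 lines. In OV2008 all 3 were lower with QC, by 0.31 for PSMB10 and 0.66 for both PSMB8 and PSMB9 on the log2 scale.

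**Figure D2:**
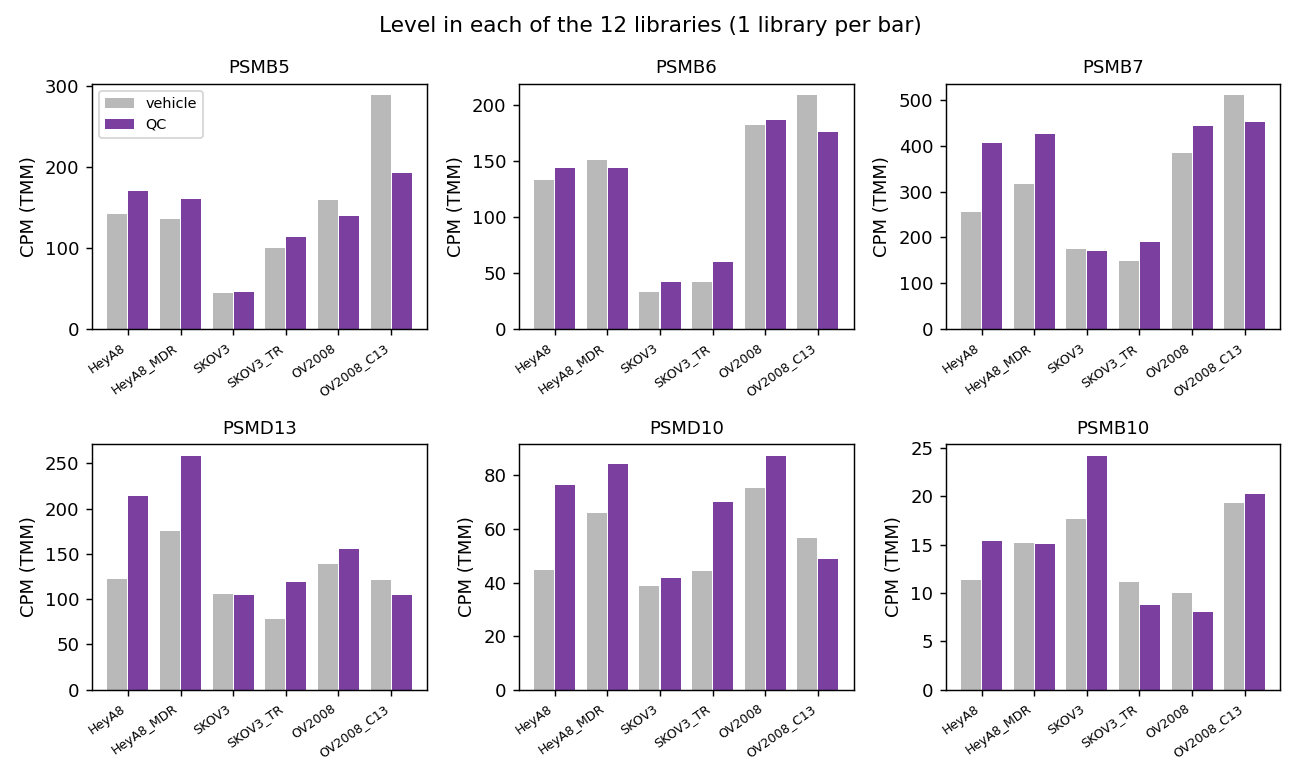
The normalised level in CPM (vertical axis, from 0) is drawn for PSMB5, PSMB6, PSMB7, PSMD13, PSMD10 and PSMB10 in each line (horizontal axis), with a grey bar for the vehicle library and a purple bar for the QC library. In OV2008_C13 the QC bar is lower than the vehicle bar for all of these but PSMB10, which stands at 19.3 and 20.2 CPM.

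In the regulatory particle, the lid, which holds the deubiquitinase PSMD14, had a median fitted change over lines of 0.27, the highest of the roles. All 8 lid subunits were above vehicle with QC in HeyA8 (median 0.31), HeyA8_MDR (0.57) and SKOV3_TR (0.56), 5 of 8 in SKOV3, 3 of 8 in OV2008, and 0 of 8 in OV2008_C13 (median -0.28). In SKOV3_TR the lid changes ran from 0.34 (PSMD3) to 0.80 (PSMD12), and in OV2008_C13 from -0.56 (PSMD3) to -0.13 (PSMD8). PSMD14, which strips ubiquitin from the substrate as it enters, was at 94.6 and 104 in HeyA8, 69.6 and 123 in HeyA8_MDR, 98.9 and 113 in SKOV3, 79.1 and 118 in SKOV3_TR, 123 and 119.6 in OV2008 and 188 and 130.3 in OV2008_C13 CPM with vehicle and with QC. Its levels with QC lay close together, at 104 to 130.3 CPM over the 6 lines, where those with vehicle ran from 69.6 to 188 CPM. PSMD13 was at 122 and 214 in HeyA8, 176 and 258 in HeyA8_MDR, 105 and 105 in SKOV3, 77.7 and 119 in SKOV3_TR, 139 and 156 in OV2008 and 121 and 105 in OV2008_C13 CPM with vehicle and with QC. It was higher with QC in HeyA8, HeyA8_MDR, SKOV3_TR and OV2008, almost level in SKOV3 and lower in OV2008_C13, and its fitted change was 0.32 (SE 0.15, edgeR's quasi-likelihood test, Benjamini-Hochberg adjusted p = 0.320). Over the alternatives its adjusted p in edgeR or DESeq2 lay between 0.223 and 1.0, and without HeyA8 it was 0.591. PSMD6 was at 106 and 151 in HeyA8, 90.2 and 152 in HeyA8_MDR, 119.6 and 128 in SKOV3, 88.0 and 118 in SKOV3_TR, 100.3 and 111 in OV2008 and 156 and 134 in OV2008_C13 CPM, higher with QC in every line but OV2008_C13, with a fitted change of 0.28 (SE 0.13, edgeR quasi-likelihood test, adjusted p = 0.342).

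PSMD8, another lid subunit, had the largest change of any subunit in any line. Its level was 190.4 and 404 in HeyA8, 393 and 525 in HeyA8_MDR, 143 and 163 in SKOV3, 137 and 177 in SKOV3_TR, 327 and 321 in OV2008 and 264 and 241 in OV2008_C13 CPM, and the change in HeyA8 was 1.08 on the log2 scale. The HeyA8 QC library thus stood near the 393 CPM of HeyA8_MDR with vehicle, the line towards which it lay on the genes that separate the pair, and the part of that displacement in the change was not tested. The fitted change over lines was 0.32 (SE 0.15, edgeR quasi-likelihood test, adjusted p = 0.350) and was 0.09 without HeyA8 and HeyA8_MDR. PSMD7 had the largest spread of changes over the lines (SD 0.50, n = 6). It was at 105 and 133 in HeyA8, 73.9 and 141 in HeyA8_MDR, 67.9 and 79.3 in SKOV3, 65.8 and 109 in SKOV3_TR, 102 and 89.4 in OV2008 and 225 and 178 in OV2008_C13 CPM. The change ran from -0.34 in OV2008_C13 to 0.93 in HeyA8_MDR, and both OV2008 lines were below vehicle.

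The base of the particle, where the ATPase ring pulls the substrate in, gave a like split between lines. All 6 ATPases were above vehicle with QC in HeyA8 and in SKOV3_TR, 5 of 6 in HeyA8_MDR, 4 of 6 in SKOV3, 2 of 6 in OV2008 and 0 of 6 in OV2008_C13. In OV2008_C13 they ran from -0.63 (PSMC3) to -0.30 (PSMC6), and in SKOV3_TR from 0.33 (PSMC5) to 0.59 (PSMC1). Their medians were 0.26 in HeyA8, 0.41 in HeyA8_MDR, 0.06 in SKOV3, 0.48 in SKOV3_TR, -0.03 in OV2008 and -0.50 in OV2008_C13. PSMC1 was at 42.2 and 65.6 in HeyA8, 44.2 and 69.5 in HeyA8_MDR, 21.1 and 25.4 in SKOV3, 24.0 and 36.2 in SKOV3_TR, 42.4 and 39.7 in OV2008 and 70.6 and 48.4 in OV2008_C13 CPM, higher with QC in the HeyA8, HeyA8_MDR, SKOV3 and SKOV3_TR lines and lower in both OV2008 lines, with a spread over lines of 0.49 (SD, n = 6). PSMD1, which with PSMD2 forms the non-ATPase scaffold of the base, was at 139 and 213 in HeyA8, 106 and 149.9 in HeyA8_MDR, 139 and 144 in SKOV3, 120.0 and 224 in SKOV3_TR, 216 and 185 in OV2008 and 281 and 226 in OV2008_C13 CPM. Its change in SKOV3_TR, 0.90, was the highest of the 35 subunits in that line, and its spread over lines was 0.49 (SD, n = 6). PSMD4, a receptor for ubiquitin chains, was the only subunit besides PSMB10 below vehicle in SKOV3_TR (-0.02).

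The 3 chaperones of the base did not move as a set. PSMD10, also called gankyrin, was at 44.7 and 76.5 in HeyA8, 66.1 and 84.2 in HeyA8_MDR, 38.5 and 41.7 in SKOV3, 44.3 and 70.0 in SKOV3_TR, 75.3 and 87.2 in OV2008 and 56.5 and 48.7 in OV2008_C13 CPM with vehicle and with QC. It was higher with QC in 5 lines and lower in OV2008_C13, and it had the smallest p of the subunits (0.32, SE 0.14, edgeR's quasi-likelihood test, Benjamini-Hochberg adjusted p = 0.310). Over the alternatives its adjusted p in edgeR or DESeq2 lay between 0.215 and 1.0, and without HeyA8 it was 0.573. PSMD5 went against the other subunits in both directions. It was at 103 and 118 in HeyA8, 100.4 and 80.0 in HeyA8_MDR, 59.5 and 62.9 in SKOV3, 38.3 and 41.8 in SKOV3_TR, 128 and 151 in OV2008 and 137 and 159 in OV2008_C13 CPM, lower with QC only in HeyA8_MDR (-0.33) and higher in OV2008_C13 (0.22). PSMD9 was lower with QC in HeyA8 (-0.37), OV2008 (-0.23) and OV2008_C13 (-0.45) and higher in the other 3 lines.

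The second question was whether core and regulatory particle changed alike. In all 6 lines the median change of the 15 core subunits tested was below that of the 17 regulatory subunits. The difference was -0.07 in HeyA8, -0.21 in HeyA8_MDR, -0.02 in SKOV3, -0.03 in SKOV3_TR, -0.05 in OV2008 and -0.11 in OV2008_C13, a mean of -0.08 over lines. It was small against the spread within a particle, whose quartiles were apart by 0.15 to 0.35 in the core and 0.20 to 0.42 in the regulatory particle. Subunits are not replicates, so no test was made. With the chaperones counted in the regulatory particle the core was lower in 5 of 6 lines, and after correction of each line's changes for GC content and transcript length it was lower in all 6 by a mean of 0.11. Over the 6 lines, fitted changes had a median of 0.08 in the core and 0.18 in the regulatory particle.

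**Figure D3:**
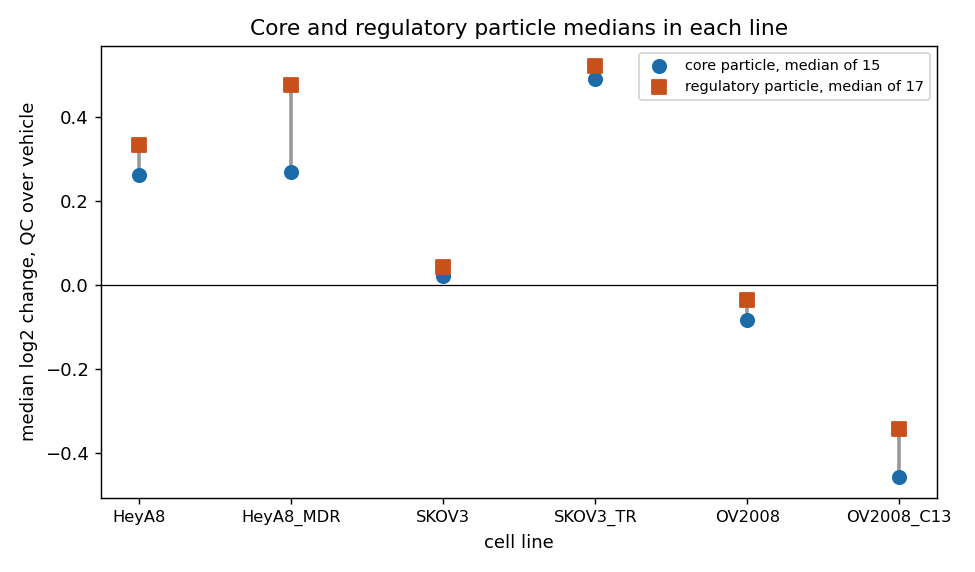
The median log2 change with QC (vertical axis) is drawn for the core particle (blue circles, 15 subunits) and the regulatory particle (orange squares, 17 subunits) in each line (horizontal axis). The core lies below the regulatory particle in each line, by 0.21 at most on the log2 scale, while both move together between lines.

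The third question was whether sensitive and resistant lines responded differently. In the 3 sensitive lines 0 of 35 subunits had an unadjusted p under 0.05 (6.59% of all genes), and the median fitted change was 0.13. In the 3 resistant lines 0 of 35 did (6.03% of all genes), with a median of 0.13. Both tests came from 1 fit to all 12 libraries, so the spread among the lines of either group entered both. The difference between the groups, tested as a contrast, also gave 0 of 35 (1.16% of all genes), with a median of 0.00. This contrast did not pair the isogenic partners, whose changes entered as if independent. After Benjamini-Hochberg adjustment 0 subunits passed in any of these tests, in edgeR or in DESeq2. DESeq2 also gave 0 of 35 at an unadjusted p under 0.05 in each, against 6.18%, 5.84% and 0.892% of all genes in sensitive lines, resistant lines and the difference. Its adjusted calls over all genes were 31 (0.166%), 0 and 1 (0.00534%) in that order. The resistant group held both ends of the range, SKOV3_TR at the top and OV2008_C13 at the bottom.

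These counts and medians depended on OV2008_C13. Without it, 11 of 35 subunits had an unadjusted p under 0.05 over the other 5 lines, all higher with QC (31.4%, against 12.5% of all genes in that fit), among them PSMB3, PSMB7, PSMC1, PSMD1 and PSMD7. In the resistant group, then HeyA8_MDR and SKOV3_TR only, 13 of 35 did (37.1%, against 6.97% of all genes), and 5 of 35 differed between the groups (14.3%, against 2.73%). The median fitted change in the resistant group was then 0.38, whereas it was 0.01 without SKOV3_TR and 0.02 without HeyA8_MDR. The median difference between the groups was 0.29 without OV2008_C13. In the sensitive group the median was 0.03 without HeyA8. After Benjamini-Hochberg adjustment in edgeR 0 subunits passed in these fits. Leaving out HeyA8, HeyA8_MDR or SKOV3_TR gave 0 of 35 over the lines that remained (against 11.1% to 14.8% of all genes in these fits), and leaving out both HeyA8 and HeyA8_MDR gave 0 of 35 where 9.14% of all genes had an unadjusted p under 0.05.

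The vehicle levels of the isogenic partners set these changes in context. With vehicle, 29 of 35 subunits were higher in OV2008_C13 than in OV2008 (51.6% of all genes were), by a median of 0.41 on the scale of log2 (CPM + 0.5). With QC, 19 of 35 were higher (50.1% of all genes), by a median of 0.07. In the SKOV3 pair the order was the reverse. With vehicle 12 of 35 were higher in SKOV3_TR than in SKOV3 (median -0.09, 50.0% of all genes), and with QC 29 of 35 were (median 0.37, 49.8% of all genes). In the HeyA8 pair 19 of 35 were higher in HeyA8_MDR with vehicle (median 0.04, 47.2% of all genes) and 18 of 35 with QC (median 0.01, 45.0% of all genes). The summed level of the 35 subunits went from 8379 to 6407 CPM in OV2008_C13, against 6719 and 6600 in OV2008, and from 3434 to 4618 CPM in SKOV3_TR, against 3569 and 3599 in SKOV3. The vehicle library of OV2008_C13 had the highest subunit level of the vehicle libraries, and since it enters both the difference between partners and the change with QC, those quantities are not independent.

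**Figure D4:**
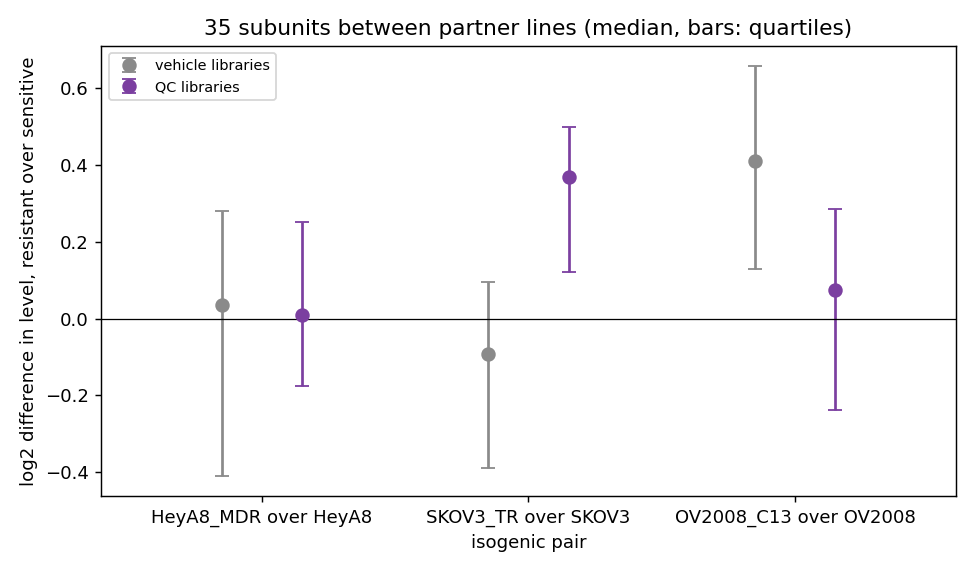
The log2 difference in level between resistant and sensitive partner (vertical axis) is drawn for the 3 isogenic pairs (horizontal axis) in vehicle libraries (grey) and QC libraries (purple), with a point for the median of 35 subunits and bars for the quartiles. The median of the OV2008 pair is 0.41 with vehicle and 0.07 with QC, and that of the SKOV3 pair -0.09 and 0.37.

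Of 41 further genes that work with the proteasome, in 8 lists written by role, 4 were higher and 2 lower with QC over the 6 lines at an unadjusted p under 0.05 (14.6%, against the 15.2% of all genes), and 0 passed the Benjamini-Hochberg adjustment in edgeR. Among the 5 assembly chaperones of the core, POMP, which caps the nascent core until it matures, was at 79.0 and 137 in HeyA8, 76.7 and 153 in HeyA8_MDR, 55.0 and 58.3 in SKOV3, 24.7 and 40.0 in SKOV3_TR, 84.7 and 98.7 in OV2008 and 157 and 135 in OV2008_C13 CPM (vehicle and QC). It was higher with QC in 5 lines and lower in OV2008_C13 (0.43, SE 0.16, edgeR quasi-likelihood test, adjusted p = 0.239). PSMG3, a chaperone of the alpha ring, was at 25.3 and 16.3 in HeyA8, 16.8 and 13.1 in HeyA8_MDR, 11.7 and 10.8 in SKOV3, 17.8 and 14.9 in SKOV3_TR, 59.8 and 47.1 in OV2008 and 62.5 and 35.9 in OV2008_C13 CPM. It was lower with QC in 6 of 6 lines (-0.42, SE 0.13, edgeR quasi-likelihood test, adjusted p = 0.188). Of the 41 genes, only PAAF1 and the shuttle factor RAD23B also kept their direction in all 6 lines, both higher with QC. Among all genes tested 8.73% kept their direction.

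The 2 subunits of the regulatory particle that the rule leaves out, the ubiquitin receptor ADRM1 and the small lid subunit SEM1, were highest in HeyA8 and HeyA8_MDR and lowest in OV2008_C13 by their change with QC. ADRM1 changed by 0.999 in HeyA8, 0.71 in HeyA8_MDR, 0.11 in SKOV3, 0.10 in SKOV3_TR, -0.63 in OV2008 and -0.73 in OV2008_C13, and SEM1 by 1.25, 0.66, -0.11, 0.43, -0.24 and -0.48. In HeyA8, ADRM1 went from 151 to 302 CPM and SEM1 from 39.9 to 95.3 CPM. HeyA8_MDR with vehicle was at 268 and 124 CPM. The part of the displacement of the HeyA8 QC library in these 2 changes was not tested. Over the 6 lines neither passed (edgeR quasi-likelihood test, adjusted p = 0.871 for ADRM1 and 0.579 for SEM1), and without HeyA8 and HeyA8_MDR both fitted changes were below 0. Of the 8 proteins that associate with the proteasome, PAAF1, which binds the ATPase ring, was higher with QC in 6 of 6 lines (0.29, SE 0.11, edgeR quasi-likelihood test, adjusted p = 0.255), and UCHL5, a deubiquitinase, was at 31.6 and 33.4 in HeyA8, 9.66 and 25.2 in HeyA8_MDR, 49.2 and 57.1 in SKOV3, 40.3 and 54.8 in SKOV3_TR, 49.2 and 57.7 in OV2008 and 75.4 and 72.5 in OV2008_C13 CPM, a change of 0.37 (SE 0.17) in which HeyA8_MDR stood highest. Of the 5 activators and inhibitors, PSME4 changed by 0.23 (SE 0.11) and PSME2 by 0.13 (SE 0.14), and 0 of 5 passed.

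The NFE2L1 list, which holds the factor itself and the proteins that release it from the endoplasmic reticulum, had 0 of 7 genes past an unadjusted p of 0.05. NFE2L1 was at 728 and 401 in HeyA8, 331 and 390.0 in HeyA8_MDR, 663 and 736 in SKOV3, 439 and 368 in SKOV3_TR, 460.0 and 410.0 in OV2008 and 227 and 222 in OV2008_C13 CPM with vehicle and with QC. Its transcript was lower with QC in HeyA8 by 0.86 on the log2 scale and changed by -0.26 to 0.24 in the other 5 lines. The HeyA8 QC library thus stood near the 331 CPM of HeyA8_MDR with vehicle. The part of its displacement towards that line in this fall was not tested. VCP, the segregase p97, was lower with QC in OV2008 (-0.55), OV2008_C13 (-0.59) and SKOV3 (-0.36) and higher in SKOV3_TR (0.46). Among the 6 shuttle factors, which carry ubiquitinated proteins to the proteasome, UBQLN1 was higher (0.30, SE 0.12, edgeR quasi-likelihood test, adjusted p = 0.263) and its paralogue UBQLN2 lower (-0.41, SE 0.16, adjusted p = 0.252 in the same test). UBQLN2 was lower by 0.87 in HeyA8 and 1.01 in HeyA8_MDR on the log2 scale and changed by 0.03 and 0.07 in SKOV3 and SKOV3_TR. Of the 6 genes for ubiquitin and its activation, the ubiquitin-activating enzyme UBA6 was higher with QC in every line but HeyA8 (0.39, SE 0.13, edgeR quasi-likelihood test, adjusted p = 0.209), while the main enzyme, UBA1, changed by -0.14 (SE 0.12).

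**Figure D5:**
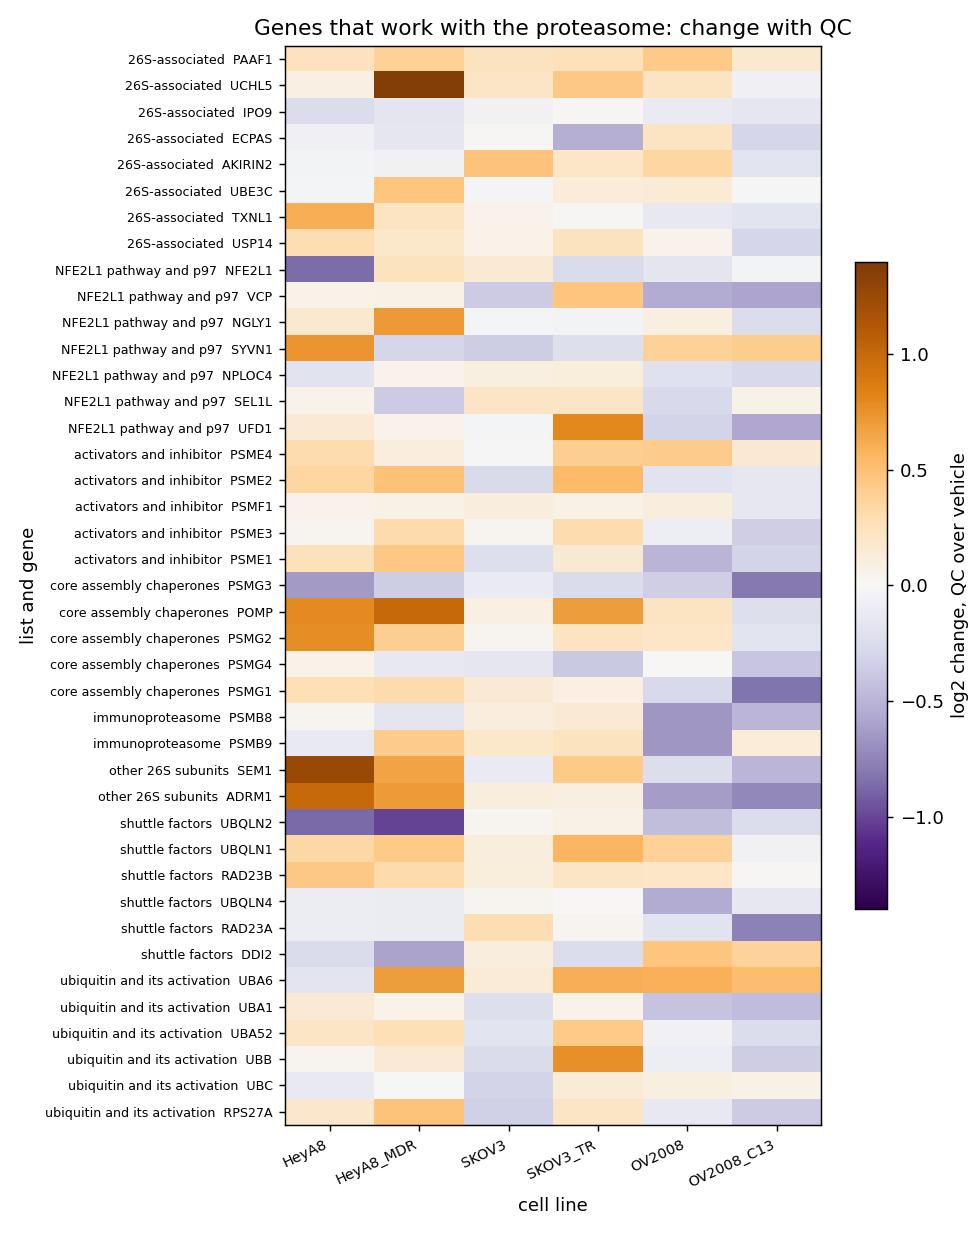
The log2 change with QC is shown by colour (orange higher, purple lower) for the 41 genes that work with the proteasome (vertical axis, grouped by list and ordered by p within a list) in each line (horizontal axis). POMP, ADRM1 and SEM1 are orange in HeyA8 and HeyA8_MDR and purple in OV2008_C13, and PSMG3 is purple in all 6 lines.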

How the data were processed

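RNA of 12 libraries (6 lines, QC and vehicle) was counted per gene by the authors, who deposited raw counts. The submitters' processing notes name STAR 2.7.3a, HTSeq 0.6.1p1 and GRCh38.p13, whereas the study's methods name TopHat, HTSeq and hg19, and the sources used here do not settle which made the table, nor give the annotation or strandedness. IDs were paired with symbols through GENCODE on GRCh37 (58620 of 60669, the others holding 0.132% of counts), which also gave lengths and exon overlaps. Promoters and positions came from RefSeq on GRCh38.p14.

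In R 4.3.3, edgeR 4.0.16 kept 18720 genes (filterByExpr, minimum count 10, minimum total 15), scaled libraries by TMM and fitted its quasi-likelihood model, two-sided, with cell line as a block, since vehicle and QC libraries of a line are pairs (correlation of deviations across genes 0.893 to 0.929). A fit with 1 QC term and a fit with a QC term for each group left 5 and 4 residual degrees of freedom. P-values were adjusted by Benjamini-Hochberg over all genes. Changes per line used a prior count of 2. DESeq2 1.42.0, other scalings and filters, and leaving out lines were alternatives, and the methods were tested on simulated data. Values in every library are given for PSMB5, PSMB6, PSMB7 and PSMB10, the 3 subunits of each particle with the smallest p, the 3 with the largest spread over lines, and 2 partners per list were named by p. PSMA3, PSMB4, PSMD2, PSMD4, PSMD5, PSMD9, PSMD10 and PSMD14 were singled out, and subunits at the ends of a role's range named, after their values were seen. Members and lists were chosen with earlier results of these data known. Lines are the replicates, so p-values measure the spread between lines, and separate cultures within a line are not described. No model held a term for the isogenic pair, so both partners of a pair counted as independent lines. Plots were drawn with matplotlib 3.10.9.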

Additional observations from a re-analysis of the deposited data

Results flagged for a closer look

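The change of PSMD5 with QC in HeyA8_MDR, -0.326 on the log2 scale, stood apart from the other 5 lines. They ranged upwards from 0.078, and the gap to the nearest of them was 0.718 of the whole range, above the 0.625 that Dixon's criterion sets for 6 values. The level of PSMD5 went from 100.4 CPM with vehicle to 80.03 CPM with QC in that line. Of 39 sets of 6 changes examined (the subunits tested and 4 summaries), this was the only one so marked, and chance marks about 1 in 20.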

How the results depend on the processing

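Adjusted counts stayed at 0 subunits under every alternative in each of the 4 tests. Over all genes, adjusted calls over the 6 lines numbered 518 with DESeq2, 791 without a filter on low counts and 0 or 1 otherwise, and in sensitive lines 31, 195 and 0 to 18. The count of subunits at an unadjusted p under 0.05 over the 6 lines, 2 as reported, was 4 with library size alone (14.5% of all genes), 4 without a filter on low counts (9.19%), 1 with upper quartile scaling (15.3%) and 0 without both HeyA8 lines (9.14%). Without the replicate block it was 0, with a median fitted change of 0.05, but 0.47% of all genes had such a p there, so that 0 says nothing particular of the subunits. Leaving out each line in turn gave 0 to 11, with 11 only without OV2008_C13 and 0 without HeyA8, HeyA8_MDR or SKOV3_TR. In sensitive lines it was 1 without a filter and 0 to 1 with a line left out. In resistant lines it was 0 to 13, and for the difference 0 to 5, both highest without OV2008_C13. The cause of these shifts was not tested. Medians of the subunits moved by less than the spread between lines, but that spread was wide (SD 0.34 over the 6 lines). That of the resistant lines ran from 0.01 to 0.38 with a line left out. The mean core to regulatory difference, -0.082 as reported, ran from -0.111 with the correction for GC content and length to -0.053 without both HeyA8 lines.

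Single genes were followed over the alternatives for the subunits named by rule, PSMD10 and the named partners only. Among these, fitted changes over lines that reversed were those of PSMB5 (0.0312 to 0.0952 with 1 line left out), PSMB10 (-0.0329 to -0.0233 with 1 line left out and -0.0369 without both HeyA8 lines), PSMB9 (-0.0545, -0.0141, -0.0109 and -0.0024 with 1 line left out, and -0.0291 without both), ADRM1 (-0.091 to -0.0502, and -0.301 without both), PSME2 (-0.025 without both) and SEM1 (-0.112 without both). None of these had passed the threshold. Some subunits that were not followed reversed as well. Without OV2008_C13, 34 of the 35 fitted changes were above 0 and 1 below, against 28 and 7 as reported. On simulated counts, 26.9% of genes changed 2-fold were called after adjustment in 3 lines and 64.5% over 6, and smaller changes were not simulated. These rates are for genes given 1 dispersion (0.0575) and the same fold in sensitive and resistant lines. How often a response that differs between lines, like that of the subunits, is called was not tested.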

Other observations

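The high level of PSMD2 in HeyA8 and HeyA8_MDR was set beside that of the genes near it. PSMD2 lies at chr3:184299241-184309050 on GRCh38.p14. Its mean vehicle level was 2270 CPM in the HeyA8 and HeyA8_MDR lines and 474 CPM in the other 4, a ratio of 4.78. Of 14 protein-coding genes within 250 kilobases that reached 1 CPM (PSMD2 included), CAMK2N2 and FAM131A had ratios of 5.22 and 3.8 at lower levels (15.4 and 66.8 CPM in the HeyA8 and HeyA8_MDR lines), while EIF4G1, the next gene downstream, had a ratio of 1.76, AP2M1 of 1.61 and POLR2H of 1.07. CHRD, VWA5B2 and EEF1AKMT4 (0.79) had ratios below 1.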
